A study of Homo sapiens with 12 samples.

Results

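The baseline state of SK-mel147 cells was described from the control arrays alone, which are 4 of the 12 arrays of the series. They were chosen by their labels, as all arrays of cells given a control hairpin. No measured value set which arrays entered, though earlier results of these data were known. SK-mel147 is an established human melanoma line, grown in serum-containing medium. Lentivirus delivered short hairpin RNAs, and messenger RNA was read on Affymetrix Human Gene 1.0 ST arrays. Controls carried either a scrambled hairpin (2 arrays) or a hairpin against luciferase (2 arrays), neither aimed at a human gene. The other 8 arrays carried hairpins against H2AZ2 (sh_37 and sh_38) or H2AZ1 (sh_83 and sh_84), which encode the isoforms H2A.Z.2 and H2A.Z.1 of a histone variant, with 2 arrays per hairpin.

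Every array, control or not, comes from infected, hairpin-expressing cells of this single line. No uninfected cells and no melanocytes were analysed here, so baseline means the state under a control hairpin. Titles say siRNA where the treatment protocol says lentiviral hairpins. The labels of sh_84 replicate 2 disagree on its hairpin, and it was placed by its title. The labels do not say whether the 2 arrays of a hairpin came from separate cultures, so the p-values below measure a spread between arrays that may be technical.

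Melanocytes arise from the neural crest and make pigment under the transcription factor MITF, which acts with SOX10 and PAX3 on enzymes such as tyrosinase. Melanoma cells are known to move between a pigmented, MITF-high state and dedifferentiated states. The latter are marked by the nerve growth factor receptor NGFR, the receptor kinase AXL, mesenchymal genes and secreted inflammatory factors. Genes were therefore grouped by role into lineage, dedifferentiation, adhesion, cytokine and cell cycle lists, of which 287 genes were measured in all. The lists were chosen with earlier results of these data known, so shares of their members are descriptions.

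Levels are log2 signals, and means are given ± SD over the 4 control arrays (n = 4). A signal also holds the affinity of a gene's probes, so a percentile among the 18417 genes places a gene on the array and does not order RNA abundance. As a reference for dim signals served the olfactory receptor genes, a family of odour receptors taken as mostly silent in melanoma. The 95th percentile of 341 such genes was 6.51 and 6.83 in the scrambled arrays and 6.54 and 6.39 in the luciferase arrays. A gene was counted as above the reference level where all 4 arrays exceeded their own value, which held for 12070 genes (65.5%). None of the 4 arrays exceeded it for 5059 genes (27.5%), and 1 to 3 arrays did for 1288 (6.99%).

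Scrambled replicate 2 stood apart from the other control arrays, with higher dim signals. Its median olfactory receptor signal was 5.36, against 5.09 to 5.19 in the other 3. Correlations over genes between control arrays ran from 0.9885 to 0.9966, the lowest being that of scrambled replicate 2 with luciferase replicate 2. Its part in the results below was not tested except where values without it are given. Leaving out an array can only keep or raise the count of 12070 genes above the reference level, since fewer arrays must then exceed it. With each array left out in turn the count was 12097 to 12587, highest without scrambled replicate 2. The highest levels over all genes were those of the metallothionein MT2A (13.88 ± 0.07) and the glycolytic enzyme GAPDH (13.74 ± 0.04). Among the 15 highest were also the ribosomal genes RPL18, RPS28 and RPL8, the actins ACTB and ACTG1, the tubulin TUBB, the histone genes H1-4 and H2BC14, and THBS1. PTMA and FAF2 ranked there too, but their probe sets disagreed. PTMA read 13.66 on its brightest probe set and 11.07 on the mean of all 6, and FAF2 read 13.64 and 12.48.

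In the control cells MITF, SOX10 and PAX3 lay above the reference level, whereas TYR, TYRP1, PMEL and MLANA lay below it, each in all 4 arrays; these were the 7 defining markers of melanocytes measured. Of 13 lineage transcription factors 9 lay above it (69.2%), near the 65.5% of all genes, and 4 below it in every array, with a median percentile of 54.9. Of 18 pigment and melanosome genes 6 lay above it in all 4 arrays (33.3%), 2 in some and 10 in none, with a median percentile of 23.2. The 3 of 7 defining markers above the reference level (42.9%, median percentile 16.8) compare with 65.5% of all genes. Endothelial markers counted 4 of 10, so a count above the reference level does not by itself name a lineage.

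MITF, the master regulator of the melanocyte lineage, read 8.30 and 8.27 with the scrambled hairpin and 8.27 and 8.30 with luciferase (8.29 ± 0.02, percentile 59.3). The 4 arrays were nearly level, and the hairpins overlapped. SOX10, the neural crest factor upstream of MITF, read 10.61, 10.51, 10.80 and 10.58 in the same order (10.62 ± 0.12, percentile 91.4). PAX3, which acts with SOX10 on MITF, read 8.83, 8.49, 8.72 and 8.92 (8.74 ± 0.18), lowest in scrambled replicate 2. The highest of the group were TBX3 (11.01 ± 0.10), a T-box repressor, LEF1 (10.59 ± 0.14), a partner of beta-catenin, and TFAP2A (10.48 ± 0.19), an AP-2 factor of the neural crest. TFEC (4.26), IRF4 (6.02), SOX6 (6.04) and TFAP2B (6.14) were below the reference level in every control array.

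TYR, tyrosinase, the first enzyme of melanin synthesis, read 4.88 and 4.86 with scrambled and 4.77 and 4.86 with luciferase (4.84 ± 0.05, percentile 7.3). TYRP1, its relative in the melanosome, read 4.65, 4.98, 4.65 and 4.75 (4.76 ± 0.15), highest in scrambled replicate 2. PMEL, the fibril protein of the melanosome, averaged 5.72 ± 0.07, and MLANA, the melanoma antigen recognised by T cells, 5.09 ± 0.03. All 16 of these values were below the reference level of their array. DCT, the remaining marker of the set, was not analysed here.

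The 6 pigment cell genes above the reference level were CD63, RAB38, RAB27A, MC1R, BIRC7 and OCA2. CD63, a tetraspanin of late endosomes and melanosomes, averaged 10.49 ± 0.10. The small GTPases of melanosome transport RAB38 (9.28 ± 0.06) and RAB27A (8.65 ± 0.09) and the melanocortin receptor MC1R (7.34 ± 0.14) followed, and the apoptosis inhibitor BIRC7 (6.79) and the melanosomal membrane protein OCA2 (6.66) lay close to the reference level. Among 4 lineage receptors MET, the receptor of hepatocyte growth factor, averaged 10.21 ± 0.04, whereas KIT (5.27), EDNRB (5.76) and ERBB3 (6.36) were below the reference level in all control arrays. No lineage gene passed the test between the control hairpins described further on.

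**Figure D1:**
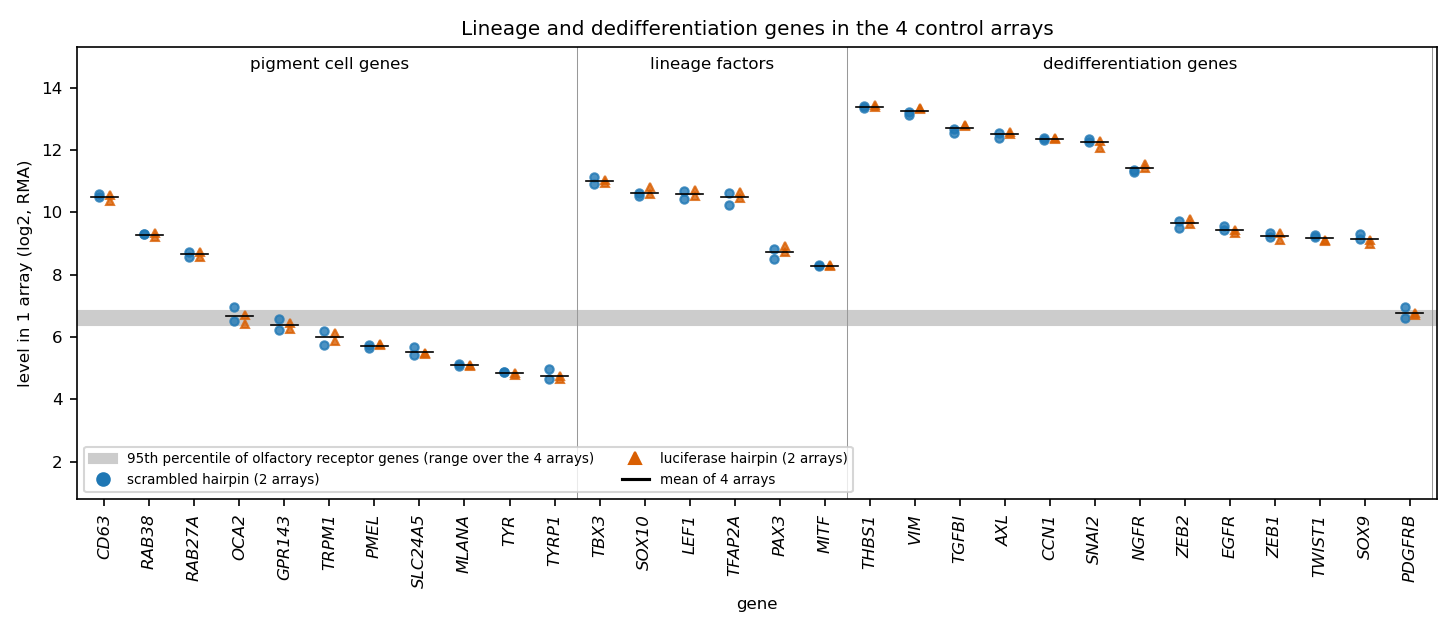
Level in each control array (log2, vertical axis) of lineage and dedifferentiation genes (horizontal axis); circles are the 2 scrambled arrays, triangles the 2 luciferase arrays, short lines the mean of 4, and the grey band the range of the reference level over the 4 arrays. MITF lies at 8.29 and SOX10 at 10.62, TYR and TYRP1 lie below the band, and AXL, SNAI2 and NGFR lie at 11.40 or above.

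The promoters of TYR and TYRP1 are shown because both genes read below the reference level while MITF read above it. MITF is known to bind the letters CATGTG, which read CACATG on the opposite strand. Windows run from 250 bases before to 50 bases after the transcription start, from RefSeq on GRCh38.p14, and are printed 5′ to 3′ on the gene's strand with these letters in capitals. The TYR window is chr11:89177625-89177924 (plus strand), with matches that begin at positions -104 and -12 relative to the start. The TYRP1 window is chr9:12693135-12693434 (plus strand), with matches at -144 and -11.
TYR: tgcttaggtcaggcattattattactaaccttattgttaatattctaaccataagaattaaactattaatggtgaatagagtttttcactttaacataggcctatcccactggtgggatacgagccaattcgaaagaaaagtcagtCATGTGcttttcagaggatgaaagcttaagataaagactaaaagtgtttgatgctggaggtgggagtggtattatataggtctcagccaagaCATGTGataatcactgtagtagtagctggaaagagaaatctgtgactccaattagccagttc
TYRP1: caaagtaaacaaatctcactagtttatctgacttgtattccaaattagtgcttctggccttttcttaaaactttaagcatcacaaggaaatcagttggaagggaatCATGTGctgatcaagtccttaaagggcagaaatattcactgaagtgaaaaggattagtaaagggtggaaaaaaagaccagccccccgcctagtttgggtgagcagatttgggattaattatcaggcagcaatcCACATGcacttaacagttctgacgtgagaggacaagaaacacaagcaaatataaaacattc
Searched on both strands, CATGTG occurred in the windows of 10 of the 15 measured pigment genes that have an entry, and in 11.1% of 35116 windows of the same length. The former counts genes, some with several windows (such as TRPM1), and the latter counts windows, so the shares are not of like units. The 10 were TYR, TYRP1, GPR143, OCA2, SLC24A5, TRPM1, MC1R, GPNMB, CD63 and BIRC7, so that genes above (CD63, MC1R) and below (TYR, TYRP1) the reference level both held it. The motif was chosen after the levels were seen, and a match in letters is a description of the window.

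Dedifferentiation genes had the largest share above the reference level of the 5 lists apart from the cell cycle genes. Above it in all 4 arrays were 42 of 50, where 65.5% of all genes were. The median percentile of the list was 75.7, against a median of 50 over all genes by construction. By role, those above it were 26 of 27 invasive and mesenchymal genes, 9 of 12 receptor kinases and 7 of 11 neural crest-like genes. The neural crest-like share was slightly under that of all genes, and the excess lay mostly in the invasive and mesenchymal genes. The exception among the invasive genes was AKR1C3 (5.97), an aldo-keto reductase. As the list was chosen with earlier results of these data known, its excess describes these members and is no test.

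NGFR, the low-affinity neurotrophin receptor that marks neural crest-like melanoma cells, read 11.36 and 11.30 with scrambled and 11.54 and 11.42 with luciferase (11.40 ± 0.10, percentile 96.3). Both luciferase arrays were above both scrambled arrays, by a mean difference of 0.15 that did not pass (limma adjusted p = 0.688). SNAI2, the neural crest repressor also called Slug, read 12.34, 12.27, 12.07 and 12.28 (12.24 ± 0.11), lowest in luciferase replicate 1. TFAP2C (10.67), the adhesion molecule L1CAM (10.08), TWIST1 (9.17), SOX9 (9.14) and FOXD3 (7.60) were above the reference level too. RXRG (5.31), AQP1 (6.09) and CD36 (3.41), also known from neural crest-like or drug-tolerant melanoma states, were below it in every control array. GFRA2, a co-receptor of neurturin, straddled it at 6.57 and 6.85 with scrambled and 6.24 and 6.27 with luciferase.

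AXL, the receptor kinase of GAS6 that marks MITF-low melanoma, read 12.53 and 12.38 with scrambled and 12.58 and 12.52 with luciferase (12.50 ± 0.09, percentile 99.3). The spread was small and the hairpins overlapped. Other receptor kinases high on the array were the collagen receptor DDR2 (10.50 ± 0.07), the ephrin receptor EPHA2 (10.39 ± 0.07), IGF1R (9.53 ± 0.16) and EGFR (9.43 ± 0.09). Probe sets disagreed for DDR2 (9.50 on the mean of both) and IGF1R (8.66). PDGFRB (6.76) lay at the reference level's edge, and PDGFRA (5.52) and the WNT5A receptor ROR2 (6.38) below it.

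Mesenchymal genes reached the top of the array. VIM, vimentin, the intermediate filament of mesenchymal cells, read 13.21, 13.13, 13.33 and 13.30 (13.24 ± 0.09, percentile 99.9). The matricellular gene THBS1 averaged 13.39 ± 0.05, TGFBI, a matrix protein induced by TGF-beta, 12.69 ± 0.12, and CCN1, a target of the YAP and TEAD factors, 12.36 ± 0.04. YAP1 itself (10.75), its paralogue WWTR1 (11.44) and CCN2 (12.07) were above the reference level in all control arrays. ZEB1, the repressor of epithelial genes that rises as melanoma dedifferentiates, averaged 9.25 ± 0.11. ZEB2, known from differentiated melanocytes, averaged 9.65 ± 0.12 on its brightest probe set but 7.33 on the mean of both, so the pair cannot be ordered here.

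Of 62 adhesion genes measured, 42 (67.7%) were above the reference level in all control arrays, near the 65.5% of all genes, at a median percentile of 60.4. Cadherins and epithelial junction genes counted 8 of 13 above it and 3 below it in every array. CDH2, N-cadherin of mesenchymal and neural cells, read 11.89 and 11.94 with scrambled and 12.02 and 12.07 with luciferase (11.98 ± 0.08, percentile 98.2). CDH1, E-cadherin, which joins melanocytes to keratinocytes, read 5.71, 5.82, 5.67 and 5.49 (5.67 ± 0.14, percentile 16.2), below the reference level in every array. EPCAM (5.09) and P-cadherin CDH3 (5.97) were below it as well, whereas the desmosome genes DSG2 (9.98) and DSP (9.09) and the junction protein CTNNB1 (12.70), beta-catenin, were above it.

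Of 17 integrin subunits 11 were above the reference level, among them the laminin-binding ITGA3 (12.22 ± 0.09) and ITGA6 (11.32 ± 0.03), the shared beta subunit ITGB1 (11.62 ± 0.06) and ITGB8 (11.55 ± 0.13), which helps to activate TGF-beta. ITGB3, a subunit tied to vertical growth of melanoma, averaged 8.36 ± 0.17. Surface molecules counted 8 of 12 above it, led by the hyaluronan receptor CD44 (13.04 ± 0.05), ALCAM (11.62 ± 0.11) and MCAM (10.82 ± 0.08), an adhesion molecule first named in melanoma. CSPG4, a proteoglycan used as a melanoma marker, read 6.16 ± 0.15, below it in every control array.

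Matrix genes counted 15 of 20 above the reference level. SPARC, a collagen-binding matricellular protein, averaged 13.22 ± 0.10, tenascin TNC 12.16 ± 0.11 and fibronectin FN1 11.67 ± 0.10. The small proteoglycan DCN (3.46 ± 0.16) and periostin POSTN (3.64 ± 0.09) lay at percentiles 0.8 and 1.2. LUM and EDIL3 differed between the control hairpins more than any other matrix gene and are described with that comparison.

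Of 73 cytokine-related genes 46 (63.0%) were above the reference level, near the 65.5% of all genes, at a median percentile of 52.2. Growth factors and TGF-beta ligands counted 16 of 20, receptors and signalling inhibitors 15 of 19, interleukins and related cytokines 9 of 18, and chemokines 6 of 16.

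CXCL1, a chemokine that draws neutrophils through CXCR2, read 12.06 and 12.07 with scrambled and 12.10 and 11.86 with luciferase (12.02 ± 0.11, percentile 98.3). CXCL8, interleukin 8, with the same receptor, read 10.46, 10.40, 10.68 and 10.00 (10.39 ± 0.29), so that the luciferase arrays enclosed the scrambled ones. CCL2, which draws monocytes, read 11.57, 11.67, 12.17 and 11.95 (11.84 ± 0.27), higher in both luciferase arrays. CXCL2 (8.54), CXCL5 (7.66) and CX3CL1 (7.47) completed the chemokines above the reference level. The interferon-induced chemokines CXCL9 (4.31 ± 0.10), CXCL10 (3.79 ± 0.10) and CXCL11 (3.97 ± 0.07), which draw T cells through CXCR3, were between percentiles 1.6 and 3.8.

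**Figure D2:**
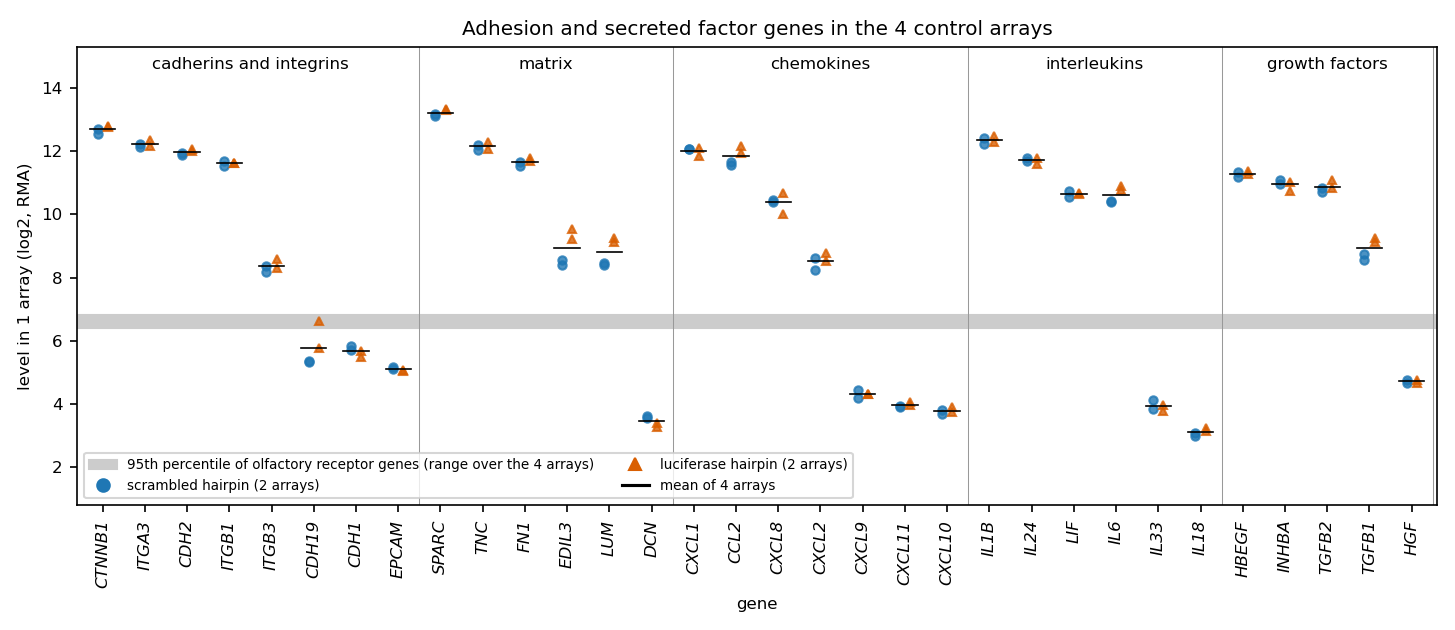
Level in each control array (log2, vertical axis) of adhesion and secreted factor genes (horizontal axis); circles are the 2 scrambled arrays, triangles the 2 luciferase arrays, short lines the mean of 4, and the grey band the range of the reference level. CXCL1, CCL2 and IL1B lie near 12 and CXCL9, CXCL10 and CXCL11 near 4. Genes in which both triangles lie above both circles include CDH2, CDH19, EDIL3, LUM, CCL2, IL6 and TGFB1.

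Promoter windows of 3 chemokines are shown because their levels lay at opposite ends of the array. The letters GGAATTTCC, which read GGAAATTCC on the opposite strand, are a form of the NF-kappaB site, in capitals below. The CXCL8 window is chr4:73740319-73740618 (plus strand, match at -91), that of CXCL1 chr4:73869143-73869442 (plus strand, match at -78), and that of CXCL10 chr4:76023448-76023747 (minus strand, match at -176).
CXCL8: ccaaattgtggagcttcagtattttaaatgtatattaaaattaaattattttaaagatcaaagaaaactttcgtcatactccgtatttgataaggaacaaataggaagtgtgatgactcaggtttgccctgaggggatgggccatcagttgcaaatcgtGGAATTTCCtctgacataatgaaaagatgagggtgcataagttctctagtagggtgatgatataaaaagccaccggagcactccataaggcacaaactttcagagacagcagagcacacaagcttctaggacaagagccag
CXCL1: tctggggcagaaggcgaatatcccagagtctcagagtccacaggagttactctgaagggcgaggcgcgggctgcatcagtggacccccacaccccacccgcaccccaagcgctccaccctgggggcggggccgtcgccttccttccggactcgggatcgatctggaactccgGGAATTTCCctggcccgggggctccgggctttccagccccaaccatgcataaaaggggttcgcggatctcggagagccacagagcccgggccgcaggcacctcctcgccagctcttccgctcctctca
CXCL10: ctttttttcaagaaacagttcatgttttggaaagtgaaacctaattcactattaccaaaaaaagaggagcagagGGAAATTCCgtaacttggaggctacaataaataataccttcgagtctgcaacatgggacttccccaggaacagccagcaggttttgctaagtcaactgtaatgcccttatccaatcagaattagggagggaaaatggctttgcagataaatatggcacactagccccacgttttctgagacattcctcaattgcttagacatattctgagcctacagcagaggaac
On either strand these letters occurred in 8 of the 13 measured chemokines with an entry, in 0 of the 15 pigment genes and in 0.461% of all 35116 windows. Here too genes are counted for the groups and windows for the whole. The 8 were CXCL1, CXCL2, CXCL3, CXCL5, CXCL6, CXCL8, CXCL10 and CXCL11. CXCL6 (5.79), CXCL10 and CXCL11 were below the reference level in all control arrays, so the same letters stood before chemokines at both ends. This motif too was chosen after the levels were seen. Several of these genes lie in 1 cluster on chromosome 4 and share ancestry.

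IL1B, interleukin 1 beta, a driver of NF-kappaB targets, read 12.43, 12.22, 12.48 and 12.28 (12.35 ± 0.12, percentile 99.1). IL24, a cytokine of the interleukin 10 family first found in differentiating melanoma cells, read 11.80, 11.70, 11.61 and 11.78 (11.72 ± 0.09). IL6, which signals through gp130, read 10.43 and 10.39 with scrambled and 10.78 and 10.89 with luciferase (10.62 ± 0.25). Of these 3 only IL6 had control hairpins that did not overlap. LIF (10.65 ± 0.07), IL1A (9.93) and IL11 (9.67) were also above the reference level, and IL18 (3.12), IFNE (3.45), IL33 (3.93) and IFNB1 (4.19) were far below it. On the receiving side the gp130 subunit IL6ST (10.26 ± 0.10), the oncostatin M receptor OSMR (10.38 ± 0.03), TNFRSF1A (10.24 ± 0.04) and NFKBIA (11.00 ± 0.07), the inhibitor induced by NF-kappaB, were above it. The chemokine receptors CXCR4 (5.37) and ACKR3 (4.25) were not.

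Among growth factors the EGF receptor ligand HBEGF averaged 11.30 ± 0.09, the activin subunit INHBA 10.96 ± 0.15, TGFB2 10.87 ± 0.15 and PDGFA 10.10 ± 0.19. HGF, the ligand of MET, read 4.67, 4.75, 4.77 and 4.68 (4.72 ± 0.05), below the reference level in each array while MET was above it. EREG (5.80) was the other growth factor below it in every array.

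Cell cycle genes were the list most uniformly high, though this list too was chosen with earlier results of these data known. Of 68 measured 66 (97.1%) were above the reference level in all 4 arrays, against 65.5% of all genes, at a median percentile of 87.1. These included 22 of 22 replication and G1/S genes and 20 of 20 mitotic genes. CDC20, the activator of the anaphase-promoting complex, averaged 12.46 ± 0.08, the mitotic kinase PLK1 12.11 ± 0.03, and the transcription factor FOXM1 11.69 ± 0.10. MKI67, the proliferation marker Ki-67, read 11.00 and 10.82 with scrambled and 10.81 and 10.83 with luciferase (10.87 ± 0.09). TYMS (11.50 ± 0.11), RRM1 (11.41 ± 0.09) and MCM7 (11.09 ± 0.17), of nucleotide supply and the replicative helicase, led the replication genes, and E2F2 (7.13 ± 0.07) was the lowest of them.

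CCND1, cyclin D1, read 12.18, 12.25, 12.14 and 12.17 (12.19 ± 0.05), and its kinase CDK4 12.24, 12.19, 12.08 and 12.17 (12.17 ± 0.07). CCND2 (5.79 ± 0.13) was the 1 cyclin below the reference level. The retinoblastoma gene RB1 (10.56 ± 0.08), the ubiquitin ligase MDM2 (10.17 ± 0.28), the kinase inhibitor CDKN1A (9.92 ± 0.15) and CDKN2A (8.65 ± 0.10), which encodes p16 and ARF, were above it. CDKN2B, the neighbour of CDKN2A, read 6.27, 6.88, 6.44 and 6.30 (6.47 ± 0.28) and exceeded the reference level in scrambled replicate 2 only.

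**Figure D3:**
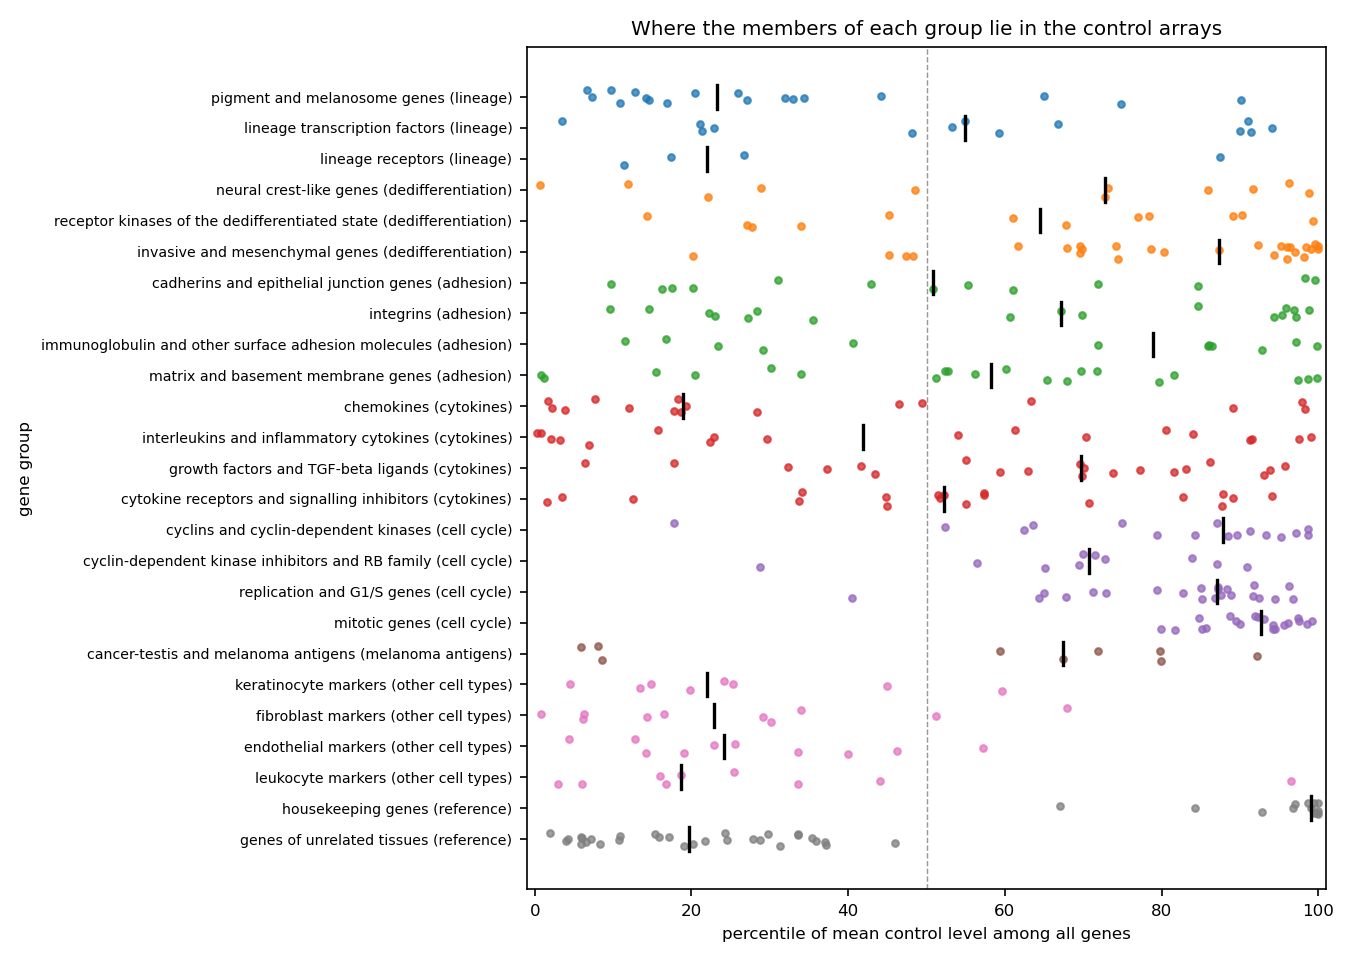
Percentile of each gene's mean control level among all 18417 genes (horizontal axis) for the members of each group (vertical axis); points are genes, thick bars group medians, and the dashed line the 50th percentile. Mitotic genes have a median of 92.7, invasive and mesenchymal genes 87.3, pigment genes 23.2 and chemokines 19.0.

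Markers of other cell types were mostly below the reference level, with named exceptions. Above it in all control arrays were 2 of 8 keratinocyte, 3 of 10 fibroblast, 4 of 10 endothelial and 2 of 9 leukocyte markers. Together these were 11 of 37 (29.7%), against 65.5% of all genes and 7 of 30 genes of unrelated tissues. The count for olfactory receptor genes, 10 of 341, was low by construction, since these genes set the reference level. The leukocyte antigen PTPRC (4.13), the endothelial PECAM1 (5.39), the basal keratin KRT5 (6.20) and the fibroblast gene DCN (3.46) were below it in every control array. Those above it included the lysosomal CD68 (11.45 ± 0.04), KRT14 (8.31 ± 0.32), ROBO4 (8.15 ± 0.13) and LUM (8.81 ± 0.44). In bulk RNA, fewer cells expressing a gene and less RNA per cell cannot be told apart.

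The control hairpins were then compared to see how far a baseline level depends on the control used. No gene differed between scrambled and luciferase after adjustment over all 18417 genes (0%, limma, 6 hairpin groups), and 1384 had an unadjusted p under 0.05 (7.51%). That last count was 667 without scrambled replicate 2, 3745 without scrambled replicate 1, 1775 without luciferase replicate 1, 979 without luciferase replicate 2, and 702 when only the 4 control arrays were fitted, with 0 genes called each time. The median absolute difference between the hairpin means was 0.106, and 0.337 at the 95th percentile of genes. Between arrays of the same hairpin the median absolute difference was 0.173 for scrambled and 0.139 for luciferase, and between arrays of different control hairpins it ran from 0.108 to 0.221. Differences between the controls were thus of the size seen within them. Among all 15 pairs of the 6 hairpins this difference of means was the 5th smallest, the range being 0.0823 to 0.167.

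Of the 287 genes of the lists, both scrambled arrays lay above both luciferase arrays in 38 (13.2%), as in 13.4% of all genes, and both luciferase arrays lay above in 60 (20.9%), against 17.1% of all genes. The latter were mostly 22 of 73 cytokine-related and 19 of 62 adhesion genes, where the opposite order was found in 8 and 8. Cell cycle genes showed 10 and 7, dedifferentiation genes 9 and 9, and lineage genes 3 with scrambled and 4 with luciferase above. No gene of the lists passed the test, and 27 had an unadjusted p under 0.05.

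LUM, lumican, a small proteoglycan of collagen matrix, had the smallest p of all genes. It read 8.46 and 8.41 with scrambled and 9.14 and 9.25 with luciferase, a difference of -0.76 (scrambled minus luciferase, SE 0.10, limma unadjusted p = 1.56e-05, adjusted p = 0.287). The arrays of each hairpin lay close together and the hairpins did not overlap. Among the other fibroblast markers none was wholly higher in the luciferase arrays. DCN, PDGFRA, MFAP5 and THY1 were wholly higher in the scrambled arrays, as were 13.4% of all genes and 26.7% of the olfactory receptor genes, and these 4 were below the reference level in every control array. Their part in the difference was not tested. EDIL3, an integrin ligand of the matrix, read 8.55, 8.41, 9.53 and 9.23, a difference of -0.89 (SE 0.20, limma adjusted p = 0.601). CDH19, a cadherin of the Schwann cell lineage, read 5.33, 5.38, 5.77 and 6.63, a difference of -0.85 (SE 0.24, limma adjusted p = 0.601) with luciferase replicate 2 alone above the reference level.

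Some cytokine genes named above had the same order. TGFB1 read 8.74 and 8.56 with scrambled and 9.27 and 9.13 with luciferase (difference -0.55, SE 0.13, limma adjusted p = 0.601). The differences of CCL2 (-0.44, SE 0.14, limma adjusted p = 0.628), IL6 (-0.43, SE 0.10) and IL7R (-0.43, SE 0.16), and of the ubiquitin ligase MDM2 (-0.46, SE 0.11), did not pass either. GFRA2 had the largest difference among list genes in the other direction (0.46, SE 0.17, limma adjusted p = 0.661). Without scrambled replicate 2 these differences were -0.74 for LUM, -0.82 for EDIL3, -0.87 for CDH19, -0.46 for TGFB1, -0.49 for CCL2, -0.41 for IL6, -0.21 for IL7R, -0.38 for MDM2 and 0.32 for GFRA2.

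Over all genes the largest differences with both luciferase arrays above both scrambled arrays were in short non-coding RNAs. They were the vault RNA VTRNA1-1 (-1.10), the spliceosomal RNU5B-1 (-1.09) and the small nucleolar SNORA20 (-1.01), SNORA22 (-0.98), SNORD116-6 and SNORD116-25 (-0.94 each) and SNORD82 (-0.93), with the neuronal membrane gene SLITRK6 (-0.96) between them. Copies of the SNORD116 family are near-identical, so their signals may be shared. In the other direction the largest were LINC01667 (0.73), FAM99A (0.68), PLAC9 (0.64) and CCDC88C (0.63). Next came LINC01101 (0.59), SLA (0.57) and the histone genes H4C14 and H4C15 (0.57), whose values were identical on every array. None of these 16 genes passed (limma adjusted p 0.601 to 0.661). Without scrambled replicate 2 the differences of PLAC9 (0.28), SLITRK6 (-0.53) and SNORD116-6 (-0.58) were each over 1.5 times smaller.

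**Figure D4:**
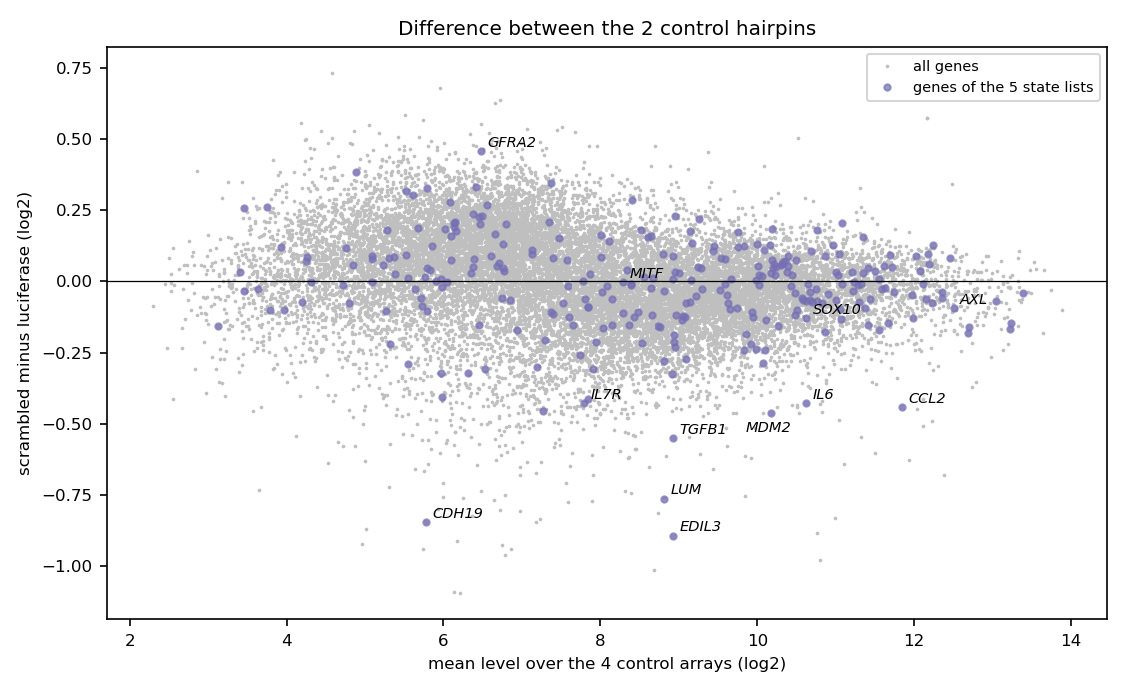
Difference between control hairpins (scrambled minus luciferase, log2, vertical axis) against the mean level over the 4 control arrays (log2, horizontal axis); grey points are all 18417 genes and violet points the 287 genes of the lists. MITF, SOX10 and AXL lie near 0, whereas LUM, EDIL3 and CDH19 lie between -0.76 and -0.89.

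Across the series, the state genes at opposite ends of the baseline were set beside the H2AZ2 and H2AZ1 hairpins, which share these 4 control arrays. The targets themselves averaged 12.24 ± 0.12 (H2AZ1) and 11.00 ± 0.05 (H2AZ2) in the controls. H2AZ1 was at 9.87 with sh_83 but at 12.12 with sh_84, so the arrays labelled sh_84 were near the control level. Of all genes 159 rose (0.863%) and 450 fell (2.44%) with the H2AZ2 hairpins (limma, hairpin as random block, adjusted p under 0.05). Of the 287 list genes 12 rose and 42 fell, at a median difference of -0.03 against 0.03 over all genes. The count of 54 depended on single arrays, being 10 without scrambled replicate 1, 28 without luciferase replicate 2, 34 without luciferase replicate 1, 34 without sh_37 replicate 1 and 27 without sh_37 replicate 2. With the H2AZ1 hairpins 0 genes were called in either direction (0%, limma), and 636 of all genes (3.45%) and 11 of the list genes had an unadjusted p under 0.05. That fit pooled sh_83 with sh_84, and H2AZ1 itself was not called. It therefore cannot tell which genes change when H2AZ1 is lowered.

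By list, 31 of the 42 falls with the H2AZ2 hairpins were among the 68 cell cycle genes measured. They included 16 of the 22 replication genes and 9 of the 20 mitotic genes, where 2.44% of all genes fell. CDK1, the kinase of mitotic entry, averaged 9.95 in the controls, 9.13 with sh_37 and 9.33 with sh_38 (difference -0.72, SE 0.12, limma adjusted p = 0.00722). CDKN1A, its inhibitor p21, rose by 0.59 (SE 0.12, limma adjusted p = 0.0185) and MDM2 by 0.53 (SE 0.12, limma adjusted p = 0.0336). The rise of MDM2 was little larger than its difference between the control hairpins given above.

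Of the 73 cytokine-related genes 7 fell and 3 rose, at a median difference of -0.01, where 2.44% of all genes fell and 0.863% rose. The rises were CXCL12 (0.73), FGF1 (0.79) and BMP2 (0.36), with a limma adjusted p of 0.0315 to 0.0396. CXCL1 fell by 1.02 (SE 0.21, limma adjusted p = 0.0186), with 10.50 for sh_37 and 11.50 for sh_38 against 12.02. CXCL8 fell by 0.77 (SE 0.15, limma adjusted p = 0.0154), IL6 fell by 0.97 (SE 0.15, limma adjusted p = 0.00565) and IL24 fell by 1.29 (SE 0.21, limma adjusted p = 0.00661). CCL2, also near the top of the array in the controls, differed by 0.61 (SE 0.32, limma adjusted p = 0.362), with 13.01 for sh_37 and 11.89 for sh_38. EDIL3 rose by 2.19 (SE 0.29, limma adjusted p = 0.00474), a change larger than its difference between the control hairpins.

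Of the lineage genes 0 of 35 were called higher and 2 lower with the H2AZ2 hairpins, and of the dedifferentiation genes 1 of 50 higher and 1 lower, against 0.863% and 2.44% of all genes. RAB38 fell by 0.50 (SE 0.10, limma adjusted p = 0.0170), PAX3 fell by 0.49 (SE 0.11, limma adjusted p = 0.0265) and the AP-2 factor TFAP2C fell by 0.78 (SE 0.13, limma adjusted p = 0.00703), while the smooth muscle actin binder TAGLN rose by 1.53 (SE 0.32, limma adjusted p = 0.02175). MITF differed by -0.07 (SE 0.08), SOX10 by -0.21 (SE 0.09), AXL by -0.16 (SE 0.10) and NGFR by -0.05 (SE 0.10), none passing (limma adjusted p 0.2635 to 0.833). TYR remained below the reference level's range with each of the 6 hairpins, at 4.69 to 4.98. For MITF the H2AZ1 hairpins, with sh_83 and sh_84 pooled, gave a difference of 0.00 and for SOX10 -0.25, neither called.

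**Figure D5:**
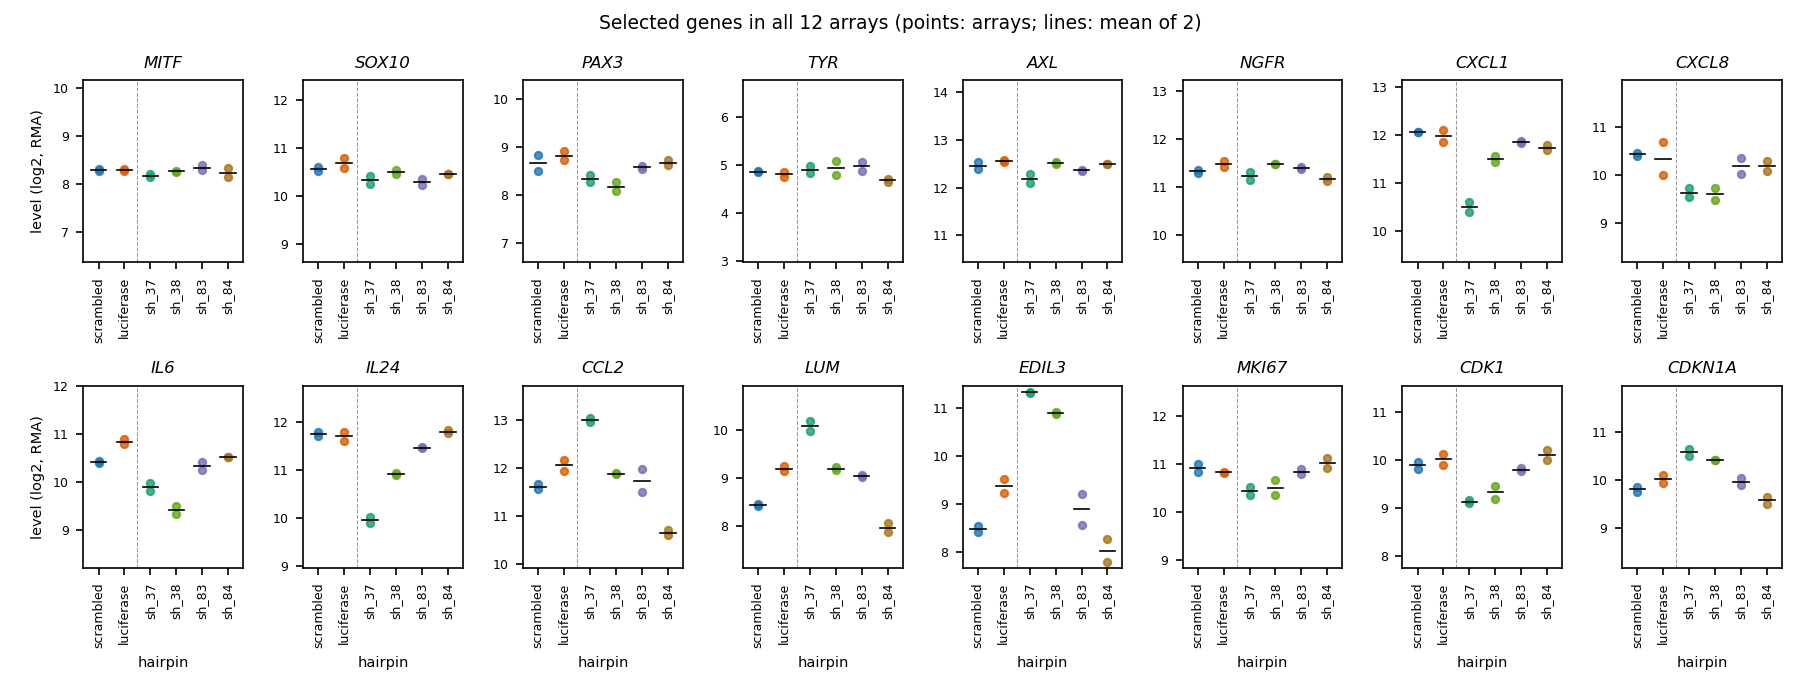
Level (log2, vertical axis) of 16 genes in all 12 arrays by hairpin (horizontal axis); points are arrays, short lines the mean of the 2 arrays of a hairpin, and the dashed line divides the control hairpins from those against H2AZ2 (sh_37, sh_38) and H2AZ1 (sh_83, sh_84). Every panel spans the same height in log2; MITF and TYR are nearly level, CXCL1, IL6 and IL24 are lower with sh_37 and sh_38, and LUM and CCL2 differ between hairpins of the same target.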

How the data were processed

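Total RNA from 12 arrays (6 hairpins, 2 arrays each) was analysed. The deposited values are log2 expression per probe set, made by the authors with RMA per the submitters' processing notes; which program and version ran it is not given in the sources used here. Depth has no counterpart on arrays, and the number of arrays limits the precision. The platform annotation gave a single symbol to 19460 of 33297 probe sets (19429 matched the reference gene table), several to 1754 and no entry to 12083. The brightest probe set was kept for the 769 genes with several, which gave 18417 genes.

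Levels were ranked by their mean over the 4 control arrays. Scrambled minus luciferase came from a limma fit of 6 hairpin groups over all arrays (limma 3.58.1, R 4.3.3, eBayes), and H2AZ2 or H2AZ1 minus control from a fit of 3 targets with hairpin as random block (duplicateCorrelation, consensus 0.157). P-values are two-sided and Benjamini-Hochberg adjusted over all genes (threshold 0.05). Both fits were tested on simulated data.

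The members and the 8 gene lists (407 genes, 38 of them not analysed here) were chosen with earlier results of these data known. Named genes are the 15 highest levels, the 8 largest differences each way among non-overlapping genes, up to 4 highest and 3 lowest per role with its largest difference, and set state genes; those that spell out other short counts, or follow a named gene of the same family, were picked after their values were seen. Promoters were matched by symbol. Alternatives covered the reference level, probe set averaging, normalization, centring, a filter on the dimmest 25% of genes, the variance model, blocks and left-out arrays. No scan dates were analysed, so no scan batch was tested. Figures used matplotlib 3.10.9.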

Additional observations from a re-analysis of the deposited data

Results flagged for a closer look

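The 222 genes picked for naming, from the state lists, the other lists and the extremes over all genes, were checked in the 4 control arrays. Of these, 6 had an array far from the other 3, by Dixon's criterion at its 95% critical value. Chance alone marks about 1 in 20 groups, and 6 of 222 is under that share. GAPDH was 13.80 in luciferase replicate 1 against 13.72 to 13.73 in the others. In scrambled replicate 2, ROR2 was 6.73 against 6.23 to 6.29. SNAI1 was 7.21 in scrambled replicate 1 and 7.45 in each of the others. ITGA10 was 5.99 in luciferase replicate 1 against 6.13 to 6.14, and CXCL1 was 11.86 in luciferase replicate 2 against 12.07 to 12.10. MKI67 was 11.00 in scrambled replicate 1 against 10.81 to 10.83.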

How the results depend on the processing

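The count of genes called between the control hairpins was 0 under every alternative except a replicate block with the luciferase numbers crossed, added after seeing the data, which called 2 (unadjusted count 2951). With the replicate block as numbered, 0 genes were called between controls (unadjusted 1962), and 43 and 0 list genes for H2AZ2 and H2AZ1. Replicate numbers went with a shared deviation in some hairpins only. Correlations of replicate deviations ran from -0.47 to 0.68 over 15 hairpin pairs, 9 of them above 0.1. They were 0.38 to 0.68 among scrambled, sh_37, sh_38 and sh_84, and -0.47 to -0.13 between luciferase and these hairpins. Those of sh_83 with the other hairpins ran from -0.01 to 0.18. What the shared deviation comes from was not tested. H2AZ2 list calls, 54 as reported, ranged from 10 to 60 with each array left out (34, 27, 28 and 34 among them), and were 70 with no hairpin block and 69 with a trended, robust variance; H2AZ1 calls were 0 throughout. With the reference at the 90th percentile, 2 lineage receptors (1 as reported), 5 fibroblast markers (3) and 11 genes of unrelated tissues (7) were above it. The last count was 1 with the 99th percentile. It was also 1 with unrelated tissues as reference, but low by construction, since those genes then set the level themselves. All other role counts stayed within 1.5 times. Of 444 tests of named levels 12 moved beyond the array SD, 10 of them on averaging probe sets. All 123 and 164 recomputed differences kept their sign. Signal over background could not be judged, since no detection values were used here.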

Other observations

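Cancer-testis antigens, germline genes that melanomas often switch on, lay on both sides of the reference level in the control cells. Of 9 measured, 6 (66.7%) were above the reference level in all 4 arrays, as were 65.5% of all genes. CSAG1 averaged 10.73 ± 0.14, MAGEA10 9.62 ± 0.14, PRAME, a repressor of retinoic acid receptor signalling, 9.61 ± 0.07, MAGEA1 9.08 ± 0.04, MAGEA4 8.78 ± 0.04 and CTAG2 8.29 ± 0.22 (SD, n = 4). MAGEC1 (4.98), MAGEC2 (4.94) and SSX1 (4.65) were below it in every control array. MAGEA10 was the 1 member of 9 whose control hairpins did not overlap, against 30.5% of all genes (9.56 and 9.45 with scrambled, 9.71 and 9.76 with luciferase), and no member passed the test between control hairpins or with the H2AZ2 or H2AZ1 hairpins.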
